A study of Mus musculus with 2 samples.

Results

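Free cytosolic tRNA synthetase genes encode the enzymes that load amino acids onto tRNA in the cytosol without being built into the multi-synthetase complex. 10 such genes were examined, Tars, Gars, Cars, Sars, Aars, Nars, Wars, Yars, Farsb and Vars, out of 21887 protein-coding genes in the RefSeq table of GRCm38.p6. They were chosen by name and function, with earlier results of the same peak list known, and all 10 were found in the table under these symbols. Farsa and Hars encode free synthetases too and are not among the 10, so their values are given separately.

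The data come from CUT&Tag, in which an antibody brings the pA-Tn5 transposase to a DNA-bound protein and the transposase tags the DNA around it for sequencing. The cells were primary neurons cultured from cortex and hippocampus of embryonic C57BL/6 mice, 100000 for each of 2 libraries, 1 made with an ATF4 antibody and 1 with IgG. Only peaks of the ATF4 library were used, and IgG was not analysed here. Whether the neurons had received hemin, the heme product with which the study injures neurons, is not stated for this experiment. There was 1 library per antibody, so no value has a replicate error, and a peak list does not show whether the cells were neurons.

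Each synthetase recognises its own amino acid and the matching tRNAs, and joins them at the expense of ATP. The enzymes fall into 2 unrelated structural classes. ATF4 is a bZIP transcription factor whose mRNA is translated more when eIF2α is phosphorylated, by PERK in endoplasmic reticulum stress or by GCN2 when uncharged tRNA accumulates. It binds DNA with partners such as the C/EBP proteins at composite elements called CARE. Genes for amino acid synthesis, amino acid transport and tRNA charging are among its known targets in many cell types.

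Called ATF4 peaks overlapped 9 of the 10 genes or the 10 kb to either side of them. Wars, for the tryptophan enzyme, had none. Counted the same way, 24.8% of all protein-coding genes had a peak, and 26.0% of the 8080 protein-coding genes whose length lay within the range of the 10 (15.4 to 70.9 kb). Peaks with a -log10 q of 5 or more, q being the p-value after the peak caller's correction for multiple testing, are called strong below. Strong peaks were found at the same 9 genes, against 6.25% of all protein-coding genes and 6.84% of those of similar length. Of the 12 genes for free synthetases, Farsa and Hars included, 9 had a peak. By enzyme class, these were 6 of the 8 genes of class II (Tars, Gars, Sars, Aars, Nars and Farsb, but not Farsa and Hars) and 3 of the 4 of class I (Cars, Yars and Vars, but not Wars).

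The 9 genes held 16 peaks of the 7873 in the list, and 10 of the 1437 strong peaks. The map of peaks around each gene shows that their strongest peaks, ranked by -log10 p, sat at or near 1 end of the gene, except at Aars. 3 genes had 1 peak (Tars, Gars and Farsb), Aars had 3 and the others had 2.

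**Figure D1:**
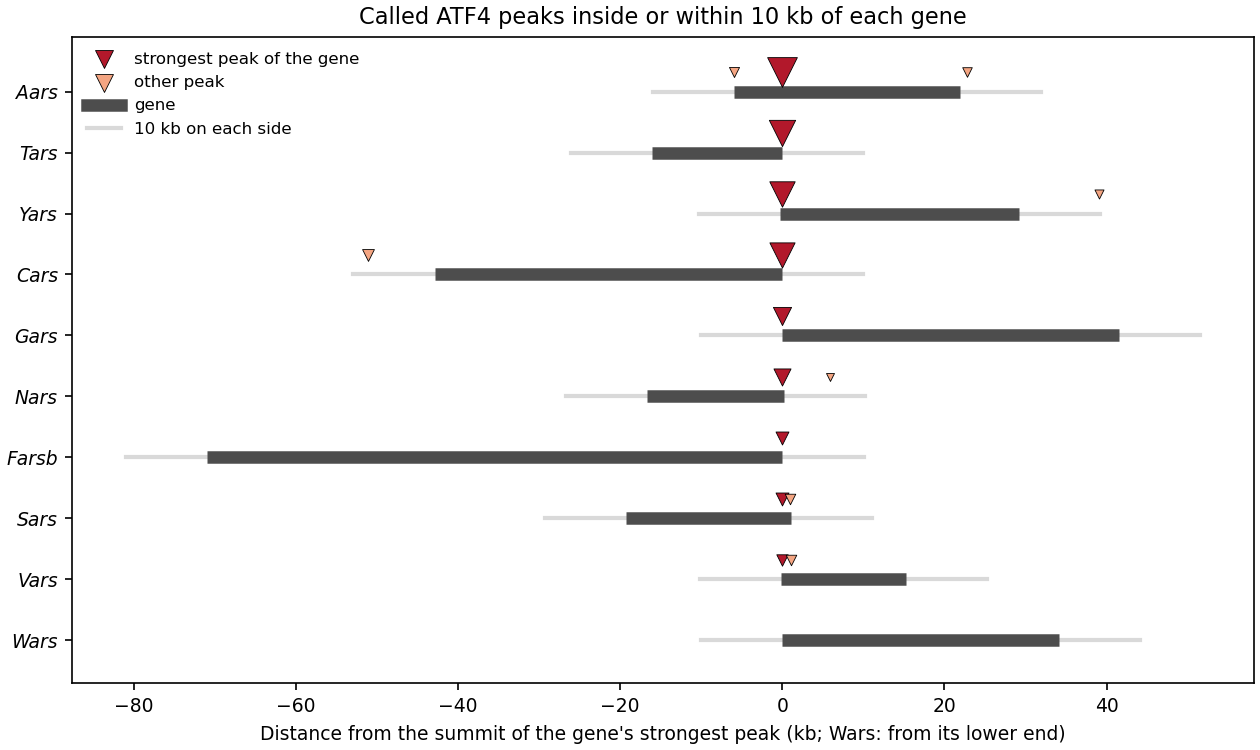
Called ATF4 peaks (triangles, area rising with the number of fragments at the summit) around the 10 genes, drawn in the order of the reference coordinates and aligned at the summit of each gene's strongest peak. The x axis is the distance in kb, dark bars are genes and light lines the 10 kb on each side. The strongest peak lies at or near the end of the gene in 8 genes and inside it in Aars, and Wars has no peak.

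A summit within 1 kb of either end of the gene was present at the same 9 genes, against 8.13% of all protein-coding genes. Counting strong peaks alone it was present at 7 genes, against 2.74%, because the only summits of Aars and Sars within 1 kb of a gene end were weaker. A transcription start with its strand was given for 6 of the 10 genes (Tars, Gars, Sars, Aars, Yars and Farsb) in the RefSeq promoter table. All 6 had a summit within 1 kb of that start, against 8.20% of protein-coding genes in that table. 5 of them had such a summit in a strong peak, against 2.82%, and the exception was Sars.

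The sequence around the start is shown for the 5 of these genes whose peak covered the start. Each run is given 5′ to 3′ on the strand of the gene, with 150 bases before the transcription start and the first 30 bases of the transcript, from the RefSeq sequence of GRCm38.p6. Capitals mark matches to the 8 letters TGATGNAA, the core of the CARE, or to TTNCATCA, the same letters on the other strand. TGATGCAA is the form of these letters with C in the free position.

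Tars, chr15:11399629-11399808, minus strand: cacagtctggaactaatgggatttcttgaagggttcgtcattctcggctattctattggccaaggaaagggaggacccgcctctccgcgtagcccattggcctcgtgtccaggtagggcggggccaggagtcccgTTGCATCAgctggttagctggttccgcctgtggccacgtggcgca
Gars, chr6:55037851-55038030, plus strand: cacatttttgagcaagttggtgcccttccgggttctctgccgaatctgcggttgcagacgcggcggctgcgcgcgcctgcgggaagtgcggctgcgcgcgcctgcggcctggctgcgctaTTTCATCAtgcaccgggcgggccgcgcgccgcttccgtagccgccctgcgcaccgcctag
Aars, chr8:111033692-111033871, plus strand: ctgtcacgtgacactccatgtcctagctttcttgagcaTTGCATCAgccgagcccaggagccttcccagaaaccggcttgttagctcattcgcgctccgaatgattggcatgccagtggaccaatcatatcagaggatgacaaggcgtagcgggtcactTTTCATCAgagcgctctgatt
Yars, chr4:129189753-129189932, plus strand: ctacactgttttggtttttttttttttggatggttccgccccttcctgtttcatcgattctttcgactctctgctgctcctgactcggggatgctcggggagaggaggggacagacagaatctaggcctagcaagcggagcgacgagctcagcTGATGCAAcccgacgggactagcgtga
Farsb, chr1:78488868-78489047, minus strand: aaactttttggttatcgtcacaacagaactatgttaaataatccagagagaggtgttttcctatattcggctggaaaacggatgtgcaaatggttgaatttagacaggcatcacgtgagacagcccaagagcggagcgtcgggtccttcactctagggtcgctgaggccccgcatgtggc

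In the promoter windows of the table, which run from 250 bases before the start to 50 after it, TGATGNAA on either strand was found in 4 of the 6 genes, Tars, Gars, Aars and Yars. It was found in 1304 of all 32851 windows (3.97%), in 6.38% of the 721 windows that held a summit and in 12.8% of the 297 windows that held the summit of a strong peak. TGATGCAA was found at Tars, Aars and Yars, against 0.895% of all windows, 2.91% of those with a summit and 6.40% of those with the summit of a strong peak. Around it, these 3 genes shared a run of 10 letters, GCTGATGCAA, which was picked after the sequences had been read and which 32 of all windows (0.0974%) and 5 of the 297 windows with a strong summit (1.68%) hold. Both counts include genes that gave the run, Tars, Aars and Yars among the 32 and Tars and Aars among the 5. The windows of Sars and Farsb had no match. The summits of Yars and Sars lay outside their windows, so the shares of windows with a summit compare with Tars, Gars, Aars and Farsb alone, of which 3 had TGATGNAA and 2 had TGATGCAA. The peaks of the 4 genes covered all or nearly all of the window searched, as the drawing of the starts shows, so a match in it would lie under the peak wherever it fell.

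**Figure D2:**
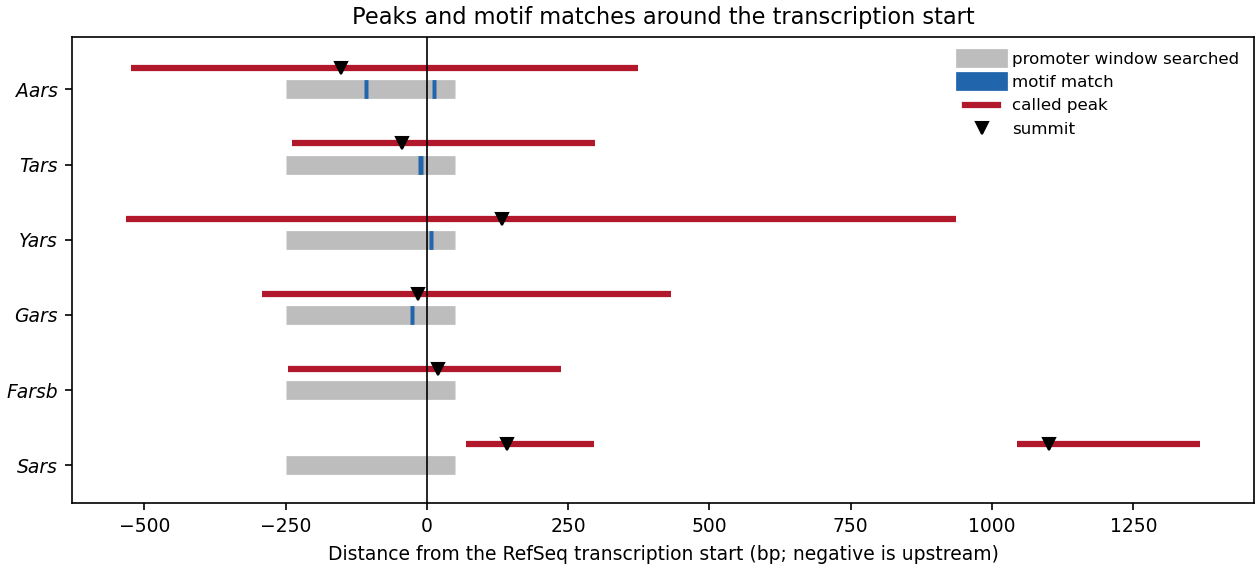
Called peaks (red lines, with the summit as a black triangle) and matches to TGATGNAA on either strand (blue) around the transcription start of the 6 genes in the RefSeq promoter table. The x axis is the distance from the start in bp and grey bars are the windows searched, from 250 bases before the start to 50 after it. In Aars, Tars, Yars and Gars the peak covers all or nearly all of the window searched and so any match in it, Farsb has a peak across the start without a match, and both peaks of Sars lie downstream of its start.

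Aars encodes the alanine enzyme, which charges tRNA-Ala and corrects tRNA wrongly loaded with serine or glycine. Its strongest peak, on chromosome 8 from 111033318 to 111034216, held the most fragments of all 16 peaks, 89 at the summit (exact Poisson 95% interval 71.5 to 109.5). Its fold enrichment was 17.1, its -log10 p 83.4 and its -log10 q 77.8, which placed it 34th of the 7873 peaks by p-value. The peak lay 5.91 kb inside the gene as the gene table draws it, from 111027778 to 111055569, but its summit was only 151 bp before the start in the promoter table, which lies 6.06 kb from that gene end. The centre of the TGATGCAA match was 42.5 bp from the summit and that of the second match, TGATGAAA, was 163.5 bp from it. The other peaks of Aars were weaker. 1 lay at the outer gene end, from 111027739 to 111028007, with 7 fragments and a fold enrichment of 4.23, and its summit lay 37 bp outside Aars and inside Ddx19b. The other lay 879 bp beyond the far end, from 111056366 to 111056534, with 6 fragments and a fold enrichment of 4.27, and its summit was inside Exosc6, 109 bp from an end of that gene.

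Tars encodes the threonine enzyme. Its only peak, on chromosome 15 from 11399361 to 11399897, had the highest fold enrichment of the 16, 18.4, with 69 fragments (53.7 to 87.3). Its -log10 p was 69.9 and its -log10 q 64.4, and it ranked 39th by p-value and 31st by fold enrichment. The summit was 44 bp before the start of Tars, 32.5 bp from the centre of the match, and no other gene held the summit or had an end within 1 kb of it. Gars encodes the glycine enzyme, which serves both cytosol and mitochondria from the same gene and in which dominant mutations cause a peripheral neuropathy. It also had 1 peak and no neighbour that shared it, on chromosome 6 from 55037710 to 55038433. The fold enrichment was 11.9 with 31 fragments (21.1 to 44.0), a -log10 q of 23.8 and rank 108. Its summit was 16 bp before the start and 10.5 bp from the centre of the match, TGATGAAA, which was the shortest such distance among the 4 genes.

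Nars encodes the asparagine enzyme. Its strongest peak lay on chromosome 18 from 64516092 to 64516763, and its summit was 210 bp within the gene from the nearer end. With 27 fragments (17.8 to 39.3) it had a higher fold enrichment, 14.3, than the Gars peak, because the background behind it was lower (0.959 against 1.68 fragments). The -log10 q was 25.3 and the rank 101. A further peak 5.71 kb outside the same end, from 64522129 to 64522313, rested on 3 fragments and had a fold enrichment of 3.46.

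Sars, for the serine enzyme, and Farsb, for the beta subunit of the phenylalanine enzyme, had the weaker peaks of class II, each with 14 fragments (7.65 to 23.5) at its strongest summit. The Farsb peak, on chromosome 1 from 78488659 to 78489142, was centred on the start, with the summit 19 bp after it, a fold enrichment of 9.45, a -log10 q of 11.2 and rank 308. Sars had 2 peaks on chromosome 3, with summits 959 bp apart and both downstream of the start. The stronger one, from 108443891 to 108444215, lay 1101 bp after the start, with a fold enrichment of 7.97, a -log10 q of 8.86 and rank 445. The other, from 108444964 to 108445189, lay 142 bp after it with 8 fragments (3.45 to 15.8) and a fold enrichment of 4.81, and the intervals of both overlap. No other gene shared the peaks of Sars or Farsb. The enzyme for phenylalanine is built from alpha and beta subunits, and Farsa, the gene of the alpha subunit, had no called peak within 10 kb.

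Among class I, Yars for tyrosine and Cars for cysteine had the strongest peaks. The Yars peak, on chromosome 4 from 129189371 to 129190840, was 1470 bp wide, the 4th widest of all peaks. It held 64 fragments (49.3 to 81.7) on the highest background of the 9 genes, 4.59 fragments, so that its fold enrichment of 11.6 stood below that of Nars with 27 fragments. Its -log10 q was 44.5 and its rank 58. The summit was 133 bp after the start of Yars and 371 bp from an end of S100pbp, a neighbouring gene, so the peak cannot be given to Yars alone. The TGATGCAA match lay 3 to 10 bp after the first transcribed base, and its centre was 126.5 bp from the summit. A weaker peak, from 129228827 to 129229073 with 5 fragments, lay 9.80 kb beyond the far end, inside C77080.

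The strongest Cars peak lay on chromosome 7 from 143599367 to 143600456, 1090 bp wide, with 63 fragments (48.4 to 80.6), a fold enrichment of 14.5, a -log10 q of 51.1 and rank 54. Its summit was 26 bp outside an end of Cars and 12 bp from an end of Gm15579, a lncRNA gene in which it lay. The second peak of Cars, from 143548900 to 143549295, was the strongest of the 7 further peaks, with 11 fragments (5.49 to 19.7) and a fold enrichment of 7.95. It lay 8.20 kb beyond the other end of Cars and inside Nap1l4, 847 bp from an end of that gene, which is far nearer than Cars.

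Vars, for the valine enzyme, had the weakest strongest peak of the 9 genes. It lay on chromosome 17 from 35000881 to 35001105 with 10 fragments (4.80 to 18.4), a fold enrichment of 6.64, a -log10 q of 5.82 and rank 1068. The summit was 135 bp inside an end of Vars and 268 bp from an end of D17H6S56E-5. A second peak 1091 bp further into Vars, from 35002018 to 35002274, held 8 fragments (3.45 to 15.8) with a fold enrichment of 5.43, and its interval overlapped that of the first.

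Wars encodes the tryptophan enzyme, which is known for its induction by interferon. The nearest summit to Wars lay 130 kb outside the gene, in a peak of 3 fragments on chromosome 12. Farsa and Hars, the gene of the histidine enzyme, were alike in having no peak within 10 kb. Their nearest summits lay 41.4 kb and 31.5 kb away, with 6 and 15 fragments.

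In the order of the fragments at the strongest summit, the 9 genes were Aars, Tars, Yars, Cars, Gars, Nars, Farsb, Sars and Vars, the last with 10 fragments. Neighbours in this order had overlapping intervals at each step but that from Cars (lower limit 48.4) to Gars (upper limit 44.0). The order by fold enrichment differed, from Tars (18.4) and Aars (17.1) through Cars (14.5), Nars (14.3), Gars (11.9) and Yars (11.6) to Farsb (9.45), Sars (7.97) and Vars (6.64). The fold enrichment, taken as (fragments + 1) / (background + 1), depends on a local background that ranged from 0.587 at Farsb to 4.59 at Yars. The added 1 weighs most where that background is low. The fold enrichment cannot be read as enrichment over IgG, since the use of that library in peak calling is not stated.

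**Figure D3:**
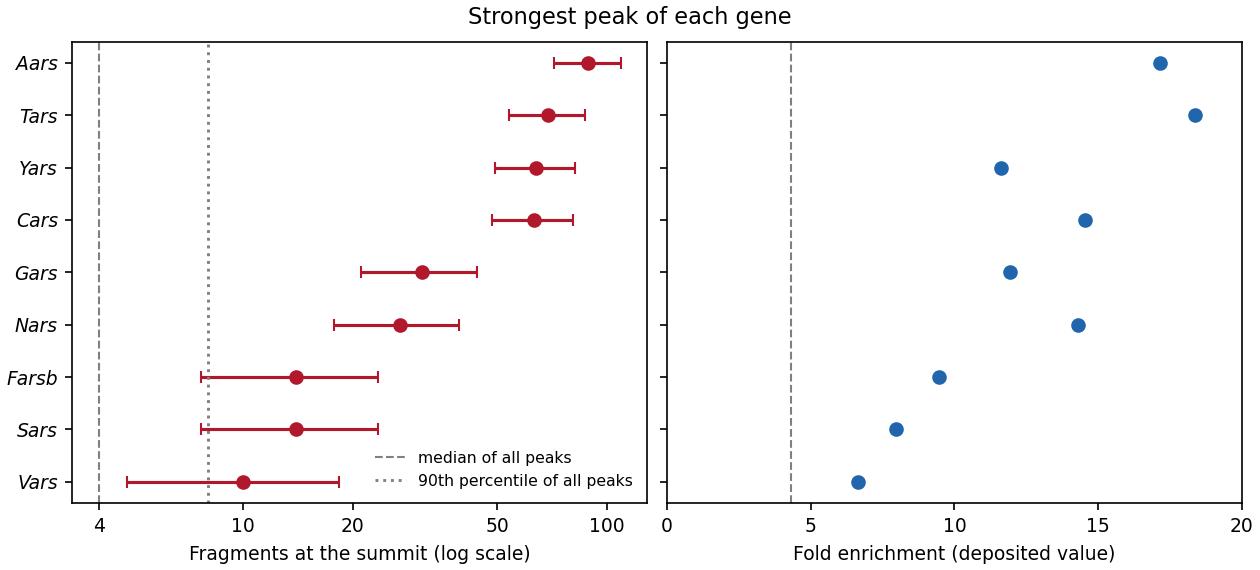
The strongest peak of each of the 9 genes with a peak. Left, fragments at the summit on a log scale with exact Poisson 95% intervals (counting error only), with lines at the median (4) and the 90th percentile (8) of all 7873 peaks. Right, the deposited fold enrichment from 0, with the median of all peaks (4.33). 4 genes have 63 to 89 fragments and the other 5 have 10 to 31, and the order by fold enrichment differs from that by fragments.

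The strongest peaks of the 9 genes had a median fold enrichment of 11.9 and a median of 31 fragments. For the 5437 protein-coding genes with a peak within the same window the medians were 4.53 and 4 fragments, and the upper quartile of the fold enrichment was 6.00. These values describe the 9 genes with a peak and leave out Wars. 6 of the 9 strongest peaks were among the first 108 of the list by p-value. They were also wide, from 225 to 1470 bp with a median of 672 bp, and each exceeded the median width of all peaks, 207 bp. The 7 further peaks held 3 to 11 fragments. Of the 7 strongest peaks with a summit within 1 kb of an end of their own gene, those of Cars, Yars and Vars, 3 of 7, also had it less than 1 kb from the end of a second gene, as did 33.3% of the 1527 peaks of the list at an end of a protein-coding gene.

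The other tRNA synthetase genes were counted by the same rules. Of the 11 genes of the multi-synthetase complex, including its 3 scaffold proteins, 7 had a peak inside the gene or within 10 kb, and 5 had a strong one. The 3 scaffold genes, which encode no synthetase, had no peak, so all 7 with a peak were synthetase genes. Their strongest peaks ranged from a fold enrichment of 3.62 at Qars to 19.6 at Iars, and the median over the 7 genes, 15.65 with 39 fragments, was above that of the 9 free synthetase genes. Of the 17 genes for mitochondrial synthetases 5 had a peak (29.4%) and 1 had a strong peak (5.88%). The lowest of the 5 had a fold enrichment of 4.14, at Nars2. By the same rules 24.8% of all protein-coding genes had a peak and 6.25% a strong one, close to these mitochondrial shares. A summit within 1 kb of a gene end was present at 9 of the 12 free synthetase genes with Farsa and Hars counted, 4 of 11 complex genes and 2 of 17 mitochondrial genes, against the 8.13% of all protein-coding genes. The differences between these lists were not tested. The bar chart of the lists sets these counts beside the share of all protein-coding genes.

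**Figure D4:**
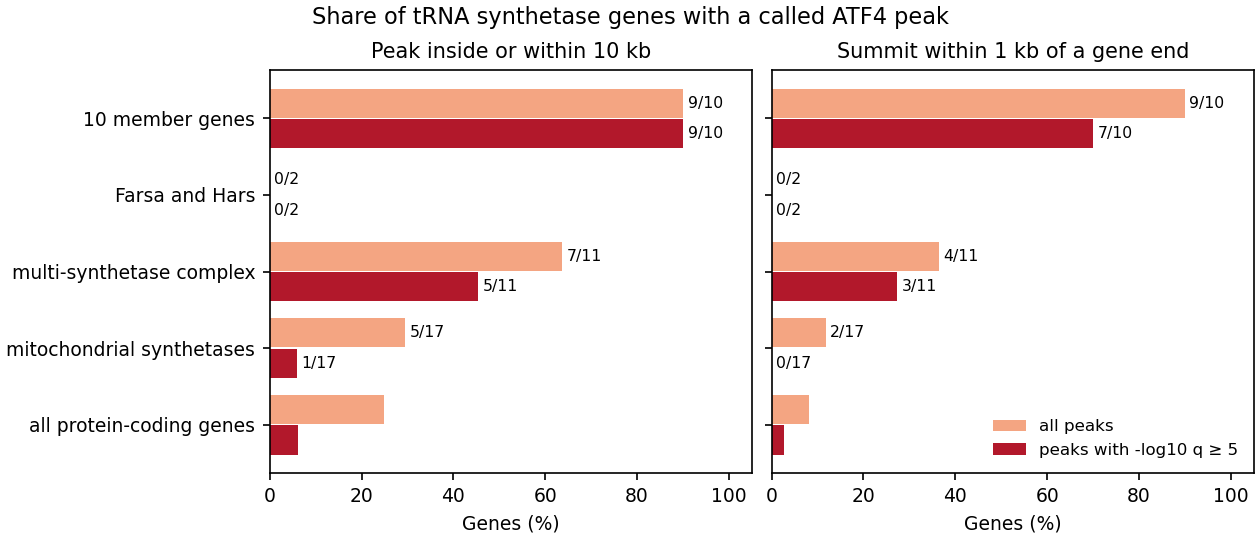
Share of genes (%, from 0) with a called ATF4 peak inside the gene or within 10 kb (left) and with a summit within 1 kb of a gene end (right), for the 10 genes, Farsa and Hars, 11 genes of the multi-synthetase complex, 17 mitochondrial synthetase genes and all 21887 protein-coding genes. Light bars count all peaks and dark bars strong peaks (-log10 q of 5 or more), and the counts of each synthetase list are written at its bars. The 10 genes reach 9 of 10 on the left with both sets of peaks, and all protein-coding genes 24.8% and 6.25%. The 11 complex genes include the scaffold genes, none of which has a peak.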

How the data were processed

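The authors deposited the peaks of the ATF4 library as positions, a fold enrichment (a ratio), -log10 values of p and q, and a score for display. In all 7873 peaks this score was the integer part of 10 times the -log10 q. Per the labels, the build was mm10 and the tools named were FastQC, BWA, MACS2 2.1.2 and deepTools. The threshold, and any use of the IgG library in peak calling, is not given in the sources used here.

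Fragments at each summit and their background were solved from the fold enrichment, taken as (fragments + 1) / (background + 1), and the p-value, taken as a Poisson upper tail, within 0.001 of the -log10 p. A whole number solved all 7873 peaks, and 2 numbers solved 35, none of them at the 10 genes. These are single reads if peaks were called on reads. On 1000 peaks simulated with the formulas above 100% were recovered. That checks the solving alone and cannot show whether the formulas hold for the deposited values. Total depth was not used here. Exact Poisson 95% intervals cover only the error of counting, as copies made by PCR are no independent molecules. A summit of 3 fragments was the lowest in the list and the most common one (41.0% of peaks).

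Genes came from RefSeq GRCm38.p6, which has no strand or exons in the gene table, so distances are to either gene end. Strand and start came from the promoter table, which held 6 of the 10 genes and not Cars, Nars, Wars or Vars. Peaks overlapping a gene or the 10 kb around it were taken, and a neighbour shared a peak if it held the summit or had an end within 1 kb of it. Promoter windows were searched on both strands. No test was made, since 1 library has no replicates.

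The genes and gene lists were chosen with earlier results of these data known. Named genes were the 10 genes, Farsa and Hars, neighbours that share a peak, and the highest and lowest of each other list, of which 1 is not reported here. Alternatives were a -log10 q of at least 5, at least 6 fragments, windows of 3 kb, 1 kb or 500 bp, the summit in place of overlap, the transcription start only, peaks with no nearer protein-coding neighbour, and TGATGCAA. Tables were computed in Python 3.11.15 with pandas 2.3.3 and numpy 2.4.6, Poisson limits with scipy 1.17.1 and figures with matplotlib 3.10.9.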

Additional observations from a re-analysis of the deposited data

How the results depend on the processing

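The number of genes with a peak inside the gene or within 10 kb was 9 with a -log10 q of at least 5, with at least 6 fragments, with windows of 3 kb or 1 kb and with the summit in place of overlap. It was 8 when peaks with a nearer, or surrounding, protein-coding neighbour were left out. The gene lost was Aars, whose strongest summit lies nearer to an end of Ddx19b than to the outer ends of Aars in the gene table. The number of peaks fell from 16 to 10 with a -log10 q of at least 5 and was 11 to 16 under the other alternatives. Genes with a summit within 1 kb of a gene end numbered 9 with a window of 500 bp or 3 kb or at least 6 fragments, and 7 with a -log10 q of at least 5, when Aars and Sars were lost. They numbered 6 with the transcription start only, which was given for 6 genes. TGATGCAA in place of TGATGNAA left 3 of 4 genes, without Gars. The search of peak sequences in place of promoter windows was not run, as the sequence used here covered promoter windows alone. At this depth neighbours in the order of the 9 strongest peaks have overlapping intervals at each step but that from Cars to Gars.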
